A study of Oryza sativa with 6 samples.

Results

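Serine acetyltransferase and cysteine synthase genes of rice were followed in leaf blades of an Os-LBD37 overexpressor line and an empty vector line. The genes were those whose name in the gene table was SAT, SULTR or RCS with a number. The gene table held 7 such genes, and 6 of them had a probe set, among 17905 genes with a probe set in all. They were the serine acetyltransferase genes SAT1, SAT2, SAT4 and SAT5 and the cysteine synthase genes rcs1 and rcs3. SAT3 had no probe set in the annotation used and was not analysed here. No gene of the table carried a SULTR name, so sulfate transporters, which the name rule also sought, were not analysed here.

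Plants make cysteine in 2 steps. Serine acetyltransferase joins an acetyl group from acetyl-CoA to serine and gives O-acetylserine. Cysteine synthase, also called O-acetylserine (thiol)lyase, then replaces that group with sulfide, which comes from the reduction of sulfate. Both enzymes can bind each other in a complex that tunes their activity to the supply of sulfide. The pathway joins nitrogen, as serine, to sulfur, and its product feeds methionine and glutathione.

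The overexpressor group was line RK16331-13, which carries an overexpression construct for Os-LBD37 (its product belongs to the LOB-domain family of transcription factors), and the other group was the empty vector control, with 3 arrays each. The plants were hygromycin-resistant and grown in hydroponic culture, and the timing of sampling followed the appearance of leaf blade 8. Leaf blades 5 and 6 gave the RNA, of which 10 μg was labelled with biotin for each array. One line stood for each group, the labels do not name the promoter of the transgene, and the level of Os-LBD37 itself was not analysed here. The gene and any other feature of these lines cannot be told apart, and in whole blades fewer cells of a type cannot be told apart from less RNA per cell. The labels speak of independent hybridizations and not of separate plants, so the p-values cover array-to-array spread, which may be technical.

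Values are probe set intensities on a linear scale, which the authors had brought to a common level on every array. Background was set on each array at the 95th percentile of 132 controls whose targets rice lacks. It was 27.3 to 32.4 on the overexpressor arrays and 28.6 to 45.4 on the empty vector arrays. The photosynthesis genes CAB2R, rca and RBCS were above background on all 6 arrays, while the RBCS1 probe set was above it on none. The summed level of these 4 genes was 49122, 104058 and 48266 on overexpressor replicates 1, 2 and 3. On the empty vector arrays it was 72911, 107880 and 72555. Replicate 2 was the highest array of each line, and overexpressor replicates 1 and 3 were below all empty vector arrays. Of 4 genes used as root markers, Lsi2 and CASP1 were above background on no array, and Lsi1 and Lsi6 on all. Their sum was 2378, 12457 and 3343 on overexpressor replicates 1, 2 and 3, against 4480, 2194 and 2098 on the empty vector arrays. It was highest on overexpressor replicate 2. Lsi6 alone had 1860, 9396 and 2530 on the overexpressor arrays, against 3657, 1083 and 1316 on the empty vector arrays. Whether Lsi1 and Lsi6 are confined to roots was not tested, so the sum does not measure root material. Of 4 genes used as flower markers, MADS58 was above background on no array, and DL and MADS16 were above it on all 6. The sum of the flower markers was 454.7 to 635.3 in the overexpressor and 311.8 to 423.4 in the empty vector line, without overlap. This came from MADS16, at 383.4 to 547.8 in the overexpressor and 223.7 to 332.0 in the empty vector line. DL, MADS3 and MADS58 each overlapped between the lines. Among all 17905 genes, 2111 were higher on every overexpressor array than on any empty vector array. RNA quality was read from 7 pairs of control probe sets at the 3 prime and 5 prime ends of rice transcripts. Their mean log2 ratio was 0.72 to 1.12 in the overexpressor and 0.64 to 1.56 in the empty vector line. Replicate 2 had the highest ratio of each line, at 1.12 in the overexpressor and 1.56 in the empty vector line. The part of these markers and of RNA quality in the results that follow was not tested.

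The comparison asked whether transcripts for cysteine synthesis differ between the lines. All 4 serine acetyltransferase genes and rcs1 had lower mean levels in the overexpressor, and rcs3 had a higher one, so 5 of 6 log2 changes were below 0, as were 49.3 percent of those of all genes. None of the 6 genes passed limma's test after Benjamini-Hochberg adjustment over all genes, with adjusted p from 0.0771 to 0.674, against 0.525 percent of all genes (94 of 17905; 237, or 1.32 percent, with the replicate block). At an unadjusted p of 0.05, SAT2, SAT4 and rcs1 passed, all lower, where 5.66 percent of all genes did so in that direction. The median log2 change was -1.31 over the 6 genes and 0.01 over all genes. It was -0.61 over the 5 genes left when probe sets that can cross-hybridize were dropped, which leaves out SAT4. The 2 lines did not overlap for SAT2, SAT4 and rcs1, each lower in the overexpressor, where 9.36 percent of all genes were separated in that direction.

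**Figure D1:**
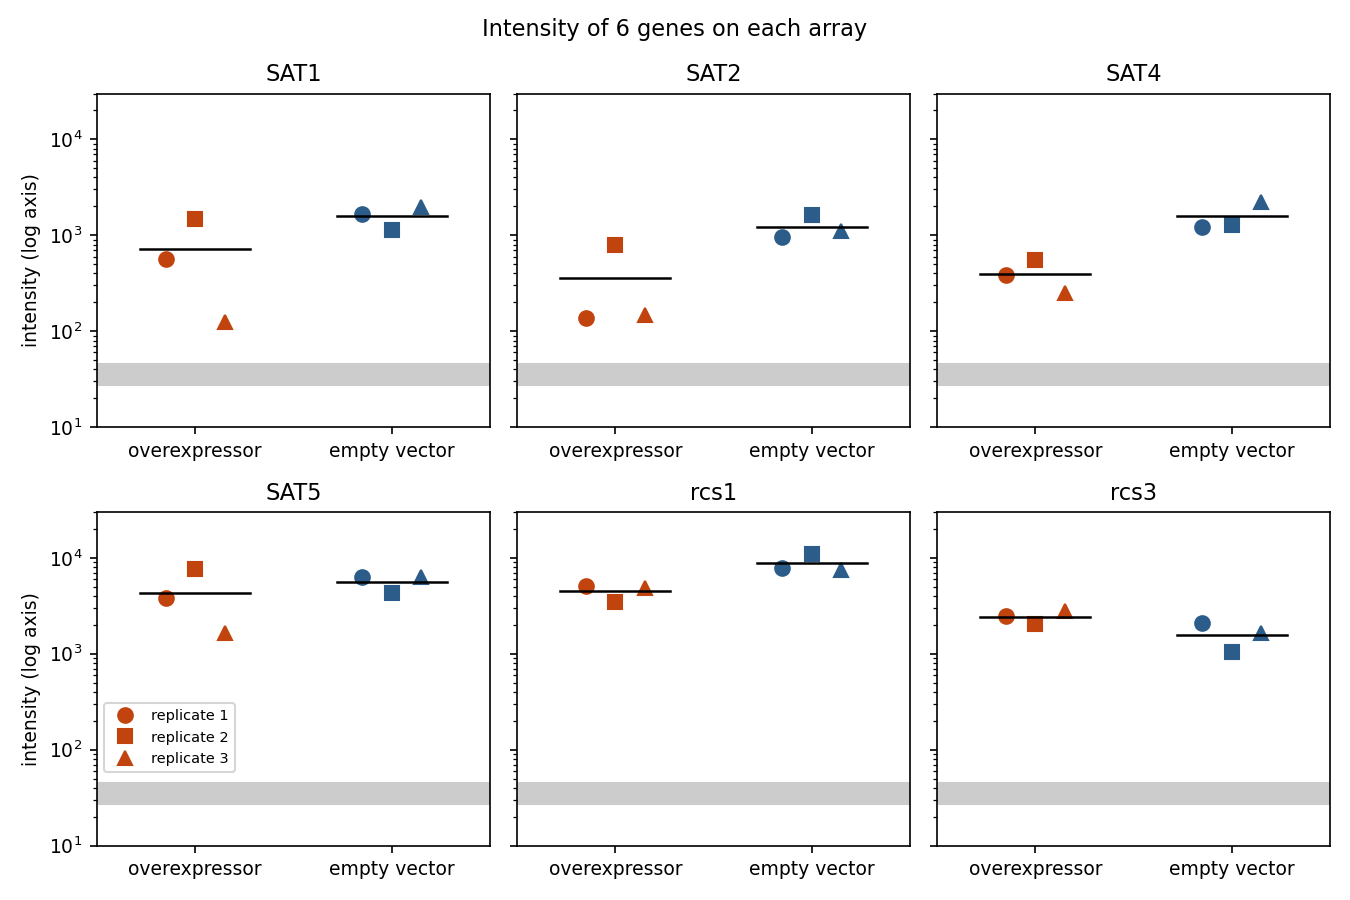
Intensity (log axis) of each gene on the 3 overexpressor arrays (left, red) and the 3 empty vector arrays (right, blue); marker shapes give the replicate number, black bars the group means, and the grey band the range of background over the arrays. The overexpressor arrays lie below all empty vector arrays for SAT2, SAT4 and rcs1, and every point lies above the background band.

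SAT4 (LOC4331941) had the smallest p of the 6 genes. Its intensity was 389.3, 550.5 and 250.2 on overexpressor replicates 1, 2 and 3, against 1219, 1267 and 2231 on the same replicates of the empty vector line. Every overexpressor array was thus below every empty vector array. The means were 396.7 ± 150.3 in the overexpressor and 1572 ± 571 in the empty vector line (SD, n = 3 each). On the log2(intensity + 16) scale, which slightly understates the change of dim genes, the difference was -1.95 ± 0.36 (SE, 95% interval -2.81 to -1.10), which did not pass (limma adjusted p = 0.0771). SAT4 was measured by a single probe set of a type that can match more than 1 transcript, so its level could include another gene.

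SAT2 (LOC4331528), another serine acetyltransferase gene, had 136.3, 784.9 and 148.0 on overexpressor replicates 1, 2 and 3, against 960.1, 1613 and 1103 on the empty vector arrays. The lines did not overlap, but replicate 2 was the highest array of each line. The means were 356.4 ± 371.1 in the overexpressor and 1225 ± 343 in the empty vector line (SD, n = 3 each). The log2 change was -2.16 ± 0.63 (SE, 95% interval -3.64 to -0.68) and did not pass (limma adjusted p = 0.183). It passed when overexpressor replicate 2 was left out, with a log2 change of -2.94 (limma adjusted p = 0.0384), where 0.168 percent of all genes passed as lower. When replicate 2 of both lines was left out it passed with -2.73 (limma adjusted p = 0.0305), where 0.726 percent of all genes did. With replicate 2 as a batch term, a choice made after seeing the data, SAT2 and SAT4 both passed (limma adjusted p = 0.0376 and 0.0475), where 1.07 percent of all genes passed as lower.

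SAT1 (LOC4324655) had 568.8, 1482 and 124.4 on overexpressor replicates 1, 2 and 3, against 1652, 1123 and 1957 on the empty vector arrays. The lines overlapped, since overexpressor replicate 2 was above empty vector replicate 2. The overexpressor arrays spanned 11.9-fold from lowest to highest, against 1.74-fold in the empty vector line. The log2 change of -1.64 ± 0.78 (SE, 95% interval -3.47 to 0.18) did not pass (limma adjusted p = 0.407). It was -2.44 without overexpressor replicate 2 and -0.73 without overexpressor replicate 3, neither past the threshold.

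SAT5 (LOC4339425) had 3769, 7603 and 1638 on overexpressor replicates 1, 2 and 3, against 6240, 4311 and 6309 on the empty vector arrays. The highest and the lowest array of all 6 were both of the overexpressor. Its log2 change was -0.61 ± 0.52 (SE, 95% interval -1.83 to 0.60) and did not pass (limma adjusted p = 0.674). Without overexpressor replicate 3 the change was -0.05, and without overexpressor replicate 2 it was -1.15, neither past the threshold.

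SAT1 and SAT5 each had a further probe set, and that of SAT1 did not repeat the spread of its brighter one. The dimmer SAT1 probe set had 401.1, 217.8 and 216.4 on the overexpressor arrays, against 368.2, 410.2 and 405.4 on the empty vector arrays. Here overexpressor replicate 2 was low and replicate 1 lay within the range of the empty vector line, whereas in the brighter probe set replicate 2 was the highest overexpressor array. The dimmer SAT1 probe set had a log2 change of -0.54 ± 0.30 (SE; limma adjusted p = 0.638 over 57194 probe sets). By its name, the brighter SAT1 probe set may bind transcripts of other genes, and the dimmer one is of the type designed for a single transcript. The second SAT5 probe set was not above background on any array, with 0.90 to 4.69 on the overexpressor arrays and 0.48 to 1.75 on the empty vector arrays, so it gives no fold.

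**Figure D2:**
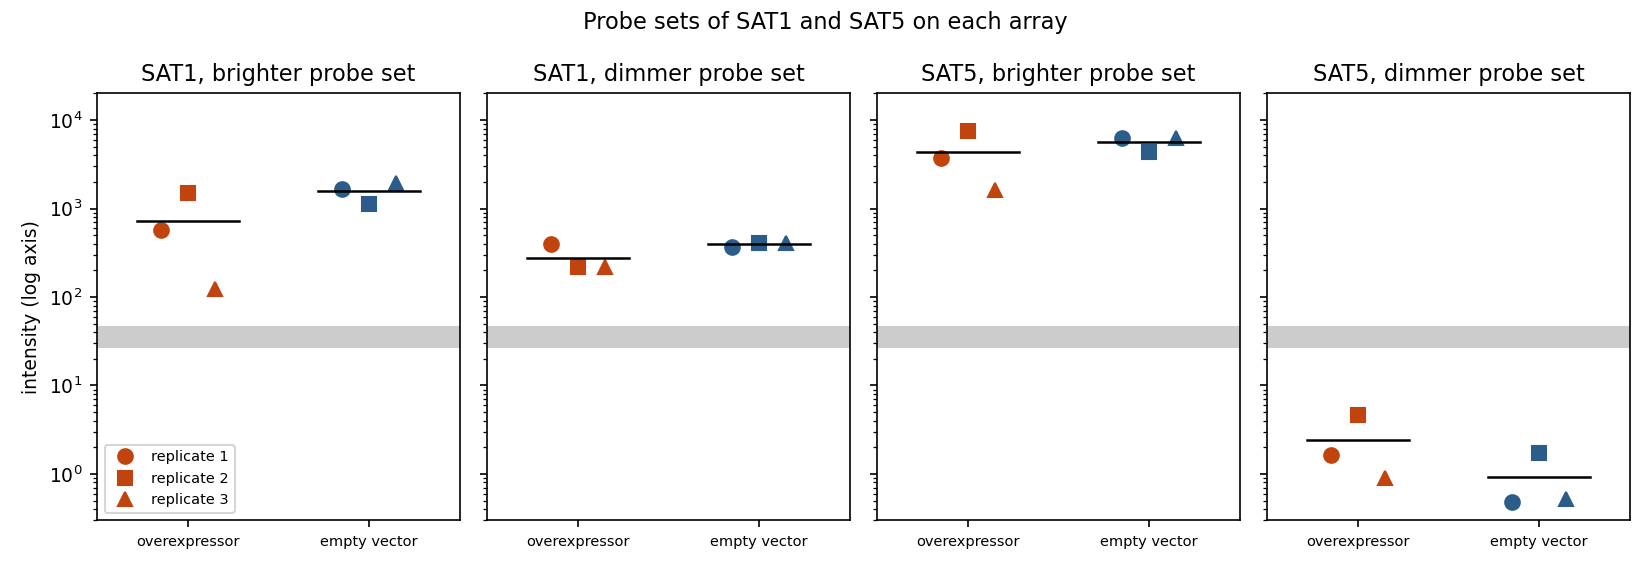
Intensity (log axis) of the brighter and the dimmer probe set of SAT1 and of SAT5, for the overexpressor (left in each panel, red) and the empty vector line (right, blue), with marker shapes for replicate numbers, bars for means and a grey band for background. Overexpressor replicate 2 is at 1482 in the brighter and 217.8 in the dimmer SAT1 probe set, and the dimmer SAT5 probe set lies wholly below background.

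The cysteine synthase genes differed from each other in direction. For rcs1 (LOC4352839) the intensity was 5129, 3447 and 4807 on overexpressor replicates 1, 2 and 3, against 7763, 11002 and 7482 on the empty vector arrays. All overexpressor arrays were below all empty vector arrays, with means of 4461 ± 893 in the overexpressor and 8749 ± 1956 in the empty vector line (SD, n = 3 each). The log2 change was -0.97 ± 0.25 (SE, 95% interval -1.56 to -0.37) and did not pass (limma adjusted p = 0.146).

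For rcs3 (LOC4334101), the other cysteine synthase gene, the intensity was 2476, 2050 and 2764 on overexpressor replicates 1, 2 and 3, against 2077, 1033 and 1635 on the empty vector arrays. It overlapped between the lines, by overexpressor replicate 2 and empty vector replicate 1. The log2 change was 0.66 ± 0.29 (SE, 95% interval -0.03 to 1.35) and did not pass (limma adjusted p = 0.374). Without empty vector replicate 2 it was 0.39. Whether the changes of rcs1 and rcs3 differ from each other was not tested.

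Within each replicate number, SAT2, SAT4 and rcs1 were lower in the overexpressor in 3 of 3 pairs. SAT1 and SAT5 were lower in 2 of 3, and rcs3 in 0 of 3. For SAT2, SAT4 and rcs1 the count could not come out otherwise, since their lines did not overlap. The share of all genes with such counts was not computed. The replicate 2 pair set SAT1 and SAT5 apart, with log2 differences of 0.40 and 0.82, against -1.51 and -0.72 in the replicate 1 pair and -3.81 and -1.93 in the replicate 3 pair. In SAT2 and SAT4 the replicate 2 difference was the smallest in size, at -1.02 and -1.18. In rcs1 it was the largest in size, at -1.67, against -0.60 and -0.64 in the other two pairs.

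**Figure D3:**
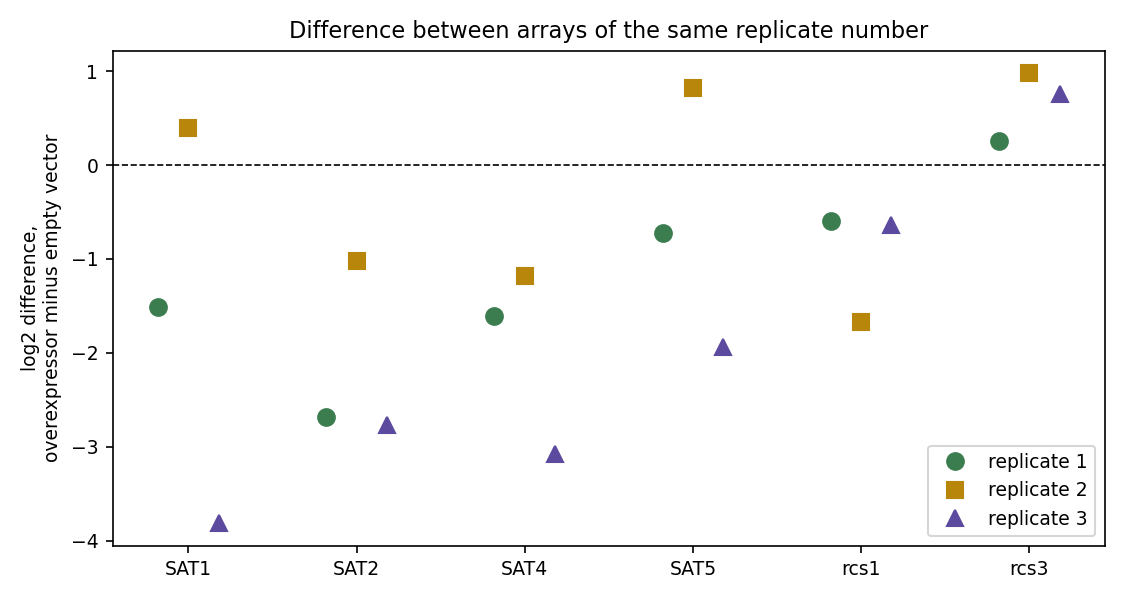
Log2 difference (overexpressor minus empty vector) between the arrays that share a replicate number, for each of the 6 genes; marker shapes and colours give the replicate number and the dashed line is 0. The replicate 2 points of SAT1 and SAT5 lie above 0, at 0.40 and 0.82, while those of replicates 1 and 3 lie below it.

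Replicate 2 also stood apart in clock genes in both lines. CCA1, a morning gene of the circadian clock, was at 611.3, 18627 and 624.2 on overexpressor replicates 1, 2 and 3, against 602.1, 5241 and 682.1 on the empty vector arrays. PCL1, an evening gene, was at 16866, 1275 and 17834 on the overexpressor arrays, against 20086, 1401 and 22354 on the empty vector arrays. Among the genes for cysteine synthesis, replicate 2 was the highest array of both lines in SAT2 and the lowest of both lines in rcs3. In SAT1 and SAT5 it was the highest array of the overexpressor and the lowest of the empty vector line. In rcs1 it was the lowest of the overexpressor and the highest of the empty vector line. In SAT4 it was the highest of the overexpressor, at 550.5, but the middle array of the empty vector line, at 1267. How many of all genes have replicate 2 at an extreme of both lines was not counted. The part of sampling time in these values was not tested.

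Other genes were taken by names used in sulfur metabolism, and 11 had a probe set. They were APR1 and 4 APR-like genes, 5 genes of methionine and S-adenosylmethionine metabolism, and the glutathione reductase gene GR. The 4 APR-like genes entered by name alone, and whether they act in sulfate reduction was not tested. The counts that follow thus describe a list of names. Of the 11 genes, 0 rose and 0 fell, with limma adjusted p from 0.187 to 0.935. At an unadjusted p of 0.05, 1 of 11 passed, where 14.2 percent of all genes did. Their log2 changes lay between -0.73 and 1.32, with a median of 0.06. MTK1, for methylthioribose kinase of the methionine salvage cycle, had the smallest p. Its intensity was 2567, 3358 and 2500 on the overexpressor arrays, against 4017, 5240 and 4659 on the empty vector arrays. The lines did not overlap, and the log2 change of -0.73 ± 0.21 (SE) did not pass (limma adjusted p = 0.187). Of the 11 genes, 2 were lower on all overexpressor arrays (MTK1 and GR) and 1 was higher on all (SAMS). Of all 17905 genes, 1676 were lower and 2111 higher in this way. APRL2 had the smallest p among APR1 and the APR-like genes, with a log2 change of 0.35 ± 0.28 (SE; limma adjusted p = 0.657), which was 0.14 without overexpressor replicate 1 and 0.55 without overexpressor replicate 2. GR, which keeps glutathione reduced, had a log2 change of -0.14 ± 0.18 (SE; limma adjusted p = 0.792), which was -0.08 without overexpressor replicate 3 and turned to 0.20 as the mean over its probe sets.

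APR1, named for the reductase that turns activated sulfate into sulfite, was singled out after its values were seen. It had 245.0, 8237 and 506.0 on overexpressor replicates 1, 2 and 3, against 467.9, 2184 and 102.6 on the empty vector arrays. Replicate 2 was the highest array of both lines, as it was for SAT2, and the spread within each line exceeded the difference between them. The log2 change was 1.05 ± 1.45 (SE, 95% interval -2.36 to 4.46; limma adjusted p = 0.81), and it was -0.44 without overexpressor replicate 2.

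**Figure D4:**
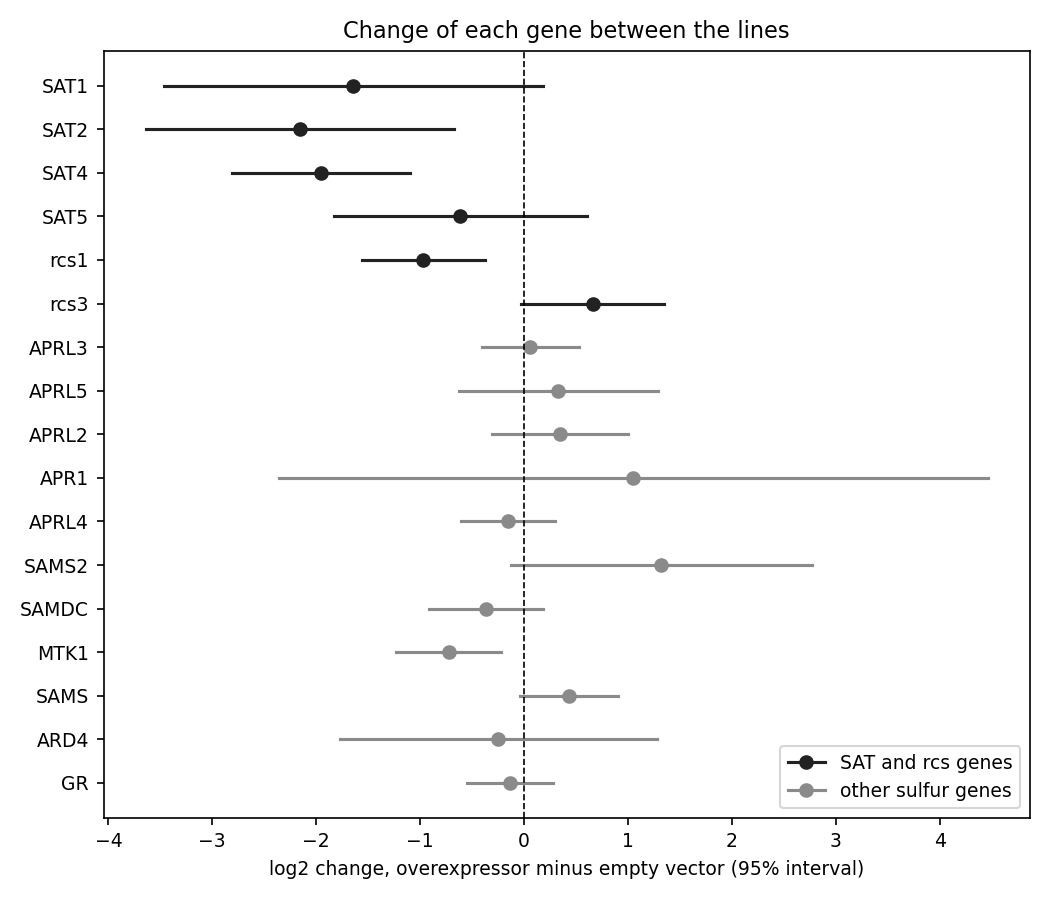
Log2 change (overexpressor minus empty vector) with its 95% interval for the 6 SAT and rcs genes (black) and the 11 other sulfur genes (grey); the dashed line is 0. The intervals of SAT2, SAT4, rcs1 and MTK1 lie below 0 before adjustment for the number of genes, and that of APR1 is the widest, from -2.36 to 4.46.

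By pattern over the 6 arrays, the genes most like SAT4 among 54 with a symbol of their own and a level above the median were P5CS1, MAGO2 and SNAT1. Their Pearson correlations with SAT4 on the log2 scale were 0.966, 0.87 and 0.816 over 6 arrays, which hold both lines, so any gene that differs between the lines gains in this measure. P5CS1, for the first enzyme of proline synthesis, was at 1893, 2161 and 1613 on overexpressor replicates 1, 2 and 3, against 2733, 3811 and 4748 on the empty vector arrays. As in SAT4, every overexpressor array of P5CS1 was below every empty vector array. MAGO2 was at 3613, 3570 and 3294 on the overexpressor arrays, against 3684, 3878 and 3802, a far smaller difference than in SAT4. SNAT1 was at 2548, 3256 and 2822 on the overexpressor arrays, against 3053, 3301 and 3906, and overlapped between the lines. The correlation does not measure the size of a change.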

How the data were processed

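RNA from rice leaf blades was measured on 6 Affymetrix-type arrays, 3 per line, grouped by their titles. The deposited values are probe set intensity on a linear scale. With 2 percent of values trimmed at each end, the mean was 500.1 on all arrays, as scaling by the authors to a common level would give. The program that summarized probes is not given in the sources used. Of 57381 probe sets, 187 controls were left out. Annotation paired 22436 with 1 gene, 95 with several and 34663 with none, and the names are those of RefSeq's rice table for ASM3414082v1. Each gene was represented by its probe set with the highest mean.

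limma 3.58.1 in R 4.3.3 fitted overexpressor minus empty vector on log2(intensity + 16) over all 57194 rice probe sets, with a variance trend, 2-sided, and p-values were adjusted over 17905 genes with a threshold of 0.05. The fit was run on simulated data with independent noise, 1 probe set per gene and no shift of replicate 2. That run checked the code and does not show how the fit behaves on these arrays. The number of arrays limits the precision. The 6 genes, the gene lists and the tests were chosen with earlier results of these data known. All 6 genes were named. Of other sulfur genes, 1 per list with the smallest p was named, and for likeness to SAT4 the 3 genes with the highest correlation. 8 names shared with other pathways or ambiguous were left out: APS2, 4 anthranilate synthase names, MS, ARD1 and ARD2. The rows of ARD1 and ARD2 in the gene table also named a heat shock factor. ARD1 had 208.1, 493.9 and 230.7 on the overexpressor arrays, against 496.9, 717.1 and 924.2 on the empty vector arrays, without overlap. ARD2 and MS overlapped between the lines.

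The main fit used no pairing. The replicate numbers of the titles were taken as pairs only for the differences within a number and for the replicate block. In deviations from each line's mean over 13863 genes, arrays of the same number correlated at 0.373, 0.429 and 0.291. Those of different numbers correlated at -0.456 to 0.314. Overexpressor replicate 1 and empty vector replicate 3, at 0.314, were thus more alike than the replicate 3 pair, at 0.291. Alternatives were the pseudocount, the normalization, a low filter, the replicate block, the removal of arrays, and the choice of probe sets.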

Additional observations from a re-analysis of the deposited data

How the results depend on the processing

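No direction of the 6 genes turned in 101 results under the alternatives run, but many of these results could not turn. The replicate block, the batch term, the low filter and a fit on 1 probe set per gene left every log2 change as it was. The choice of probe sets could not turn a gene with 1 probe set. For SAT2, SAT4 and rcs1, removal of arrays could not turn the direction, since their lines did not overlap. Of the 101 results, 4 passed the threshold: SAT2 in 3 and SAT4 in 1. The count of the 6 genes that passed was 0, and 1 without overexpressor replicate 2 (0 to 1 over removal of single arrays) or without both replicate 2 arrays. With replicate 2 as a batch term, chosen after seeing the data, it was 2, SAT2 (limma adjusted p = 0.0376) and SAT4 (0.0475). The median log2 change of -1.31 was -0.61 over the 5 genes left without cross-hybridizing probe sets, which drop SAT4 and leave SAT1 with its dimmer one (-0.54). The 94 genes that passed in all became 237 with the replicate block, 171 after median centring, 495 with the batch term and 241 without either replicate 2 array, and 4 to 50 with single arrays removed. The replicate block changed no call of the 6 genes. APR1, at 1.05, ranged from -0.44 without overexpressor replicate 2 to 2.12 without empty vector replicate 2, and GR turned to 0.20 as the mean over its probe sets; the cause was not tested. All 6 genes were above background on every array.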
